A study of Homo sapiens with 12 samples.

Results

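ACKR3 and CXCR4, the receptors of the chemokine CXCL12, were followed together with 6 chemokines, CXCL12, CXCL1, CXCL2, CXCL3, CXCL16 and CCL2, in U2OS cells that expressed E2F1 or its arginine mutants. The 8 genes were taken from the 25369 listed genes by symbol, and they were picked because ACKR3 had the largest fall in the WT E2F1 line against the empty-vector line. This rank is among well-counted genes whose samples did not overlap, as set out below. Of the 8 genes, 4 (ACKR3, CXCL3, CXCL16 and CCL2) had enough reads to pass the filter on low counts, and 16625 genes passed it in all. RNA was sequenced from 12 samples of Tet-On lines made from U2OS, a human osteosarcoma line, with 3 biological replicates of each of 4 cell lines. The pTRE line carried the empty vector, the WT line carried HA-tagged wild-type E2F1, the R109K line carried E2F1 with the arginine methylated by PRMT1 changed to lysine, and the KK line carried E2F1 with both arginines methylated by PRMT5 changed to lysine. Every line, pTRE included, was a stably transfected pool or clone selected with hygromycin and G418 (which of these was not given in the sources used here), and received doxycycline at 1 µg/ml for 24 hours, so the mutants were measured on top of the cells' own E2F1.

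Chemokines are small secreted proteins that attract cells along a gradient by binding receptors with a serpentine fold. CXCR4 couples to inhibitory G proteins and draws cells toward CXCL12. ACKR3, formerly CXCR7, binds CXCL12 without classical G protein signalling, recruits beta-arrestin, and removes its ligands from the surroundings by internalization. CXCL1, CXCL2 and CXCL3 are closely related neutrophil attractants that act through CXCR2 and are textbook targets of NF-kappaB, CXCL16 is made as a transmembrane ligand of CXCR6, and CCL2 attracts monocytes through CCR2. E2F1 is a transcription factor that drives genes of the cell cycle.

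The 12 libraries held between 11500537 and 31040903 reads on genes. WT replicate 2 stood apart: 31.2% of its reads were on genes and 58.7% were counted as having no feature, against 59.0 to 65.7% and 23.6 to 29.6% in the other 11 samples. Reads with no feature were not assigned to any counted feature, and where they lay is not given. Some WT values are therefore also given without it, and all other WT values include it. E2F1 RNA, in CPM (reads scaled to a fixed library size after TMM normalization), lay between 82.9 and 101 in the pTRE samples, between 1469 and 2315 in WT, between 932 and 1283 in R109K, and between 1112 and 1478 in KK. Of 8 mesenchymal markers, 7 were above 1 CPM in every line, and their summed level was 7330 CPM in pTRE, 2930 in WT, 3702 in R109K and 3257 in KK. Most of that difference lay in COL1A1, at 3557 CPM in pTRE and 567 to 842 by E2F1 line, and SPARC, at 1613 and 626 to 822, while VIM was at 1554 and 1305 to 1653. The summed level of 6 endothelial markers was between 3.38 and 6.82 CPM by line. Of 6 epithelial markers, KRT8 and KRT18 were abundant, with line means from 238 to 503 CPM and from 242 to 288 CPM, and CLDN4 was at 46.7 CPM in pTRE and 6.68 to 8.52 by E2F1 line. CD14 and ITGAM, genes of myeloid cells named after their values were seen, were at 0.308 and 1.52 CPM in pTRE and at 0.937 and 4.45 CPM in WT. On the log2 scale against pTRE, ITGAM stood at -0.61 in KK and 0.03 in R109K, and CD14 at 1.03 and 0.96. Without WT replicate 2, ITGAM but not CD14 was past the study's thresholds in WT. The other genes of their list did not all rise, so no myeloid character is read from these genes. In bulk RNA, fewer cells that express a gene and less RNA in each cell cannot be told apart.

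The genes of CXCL1, CXCL2 and CXCL3 lie near each other on chromosome 4. Their promoters are shown because these sister genes differed in whether any reads were counted. RefSeq promoters on GRCh38.p14 were matched for 5 of the 8 genes (CXCR4, CXCL12, CXCL1, CXCL2 and CXCL3), and ACKR3, CXCL16 and CCL2 had no entry. The 250 bases before the start site are printed 5′ to 3′ on the strand of the gene, at chr4:73869143-73869392 (plus strand) for CXCL1, chr4:74099196-74099445 (minus strand) for CXCL2, and chr4:74038690-74038939 (minus strand) for CXCL3. Capitals mark the match to the NF-kappaB consensus.
CXCL1: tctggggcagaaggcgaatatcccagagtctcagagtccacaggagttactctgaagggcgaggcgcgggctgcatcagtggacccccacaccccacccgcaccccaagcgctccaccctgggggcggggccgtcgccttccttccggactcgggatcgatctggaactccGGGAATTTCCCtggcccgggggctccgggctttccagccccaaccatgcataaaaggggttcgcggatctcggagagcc
CXCL2: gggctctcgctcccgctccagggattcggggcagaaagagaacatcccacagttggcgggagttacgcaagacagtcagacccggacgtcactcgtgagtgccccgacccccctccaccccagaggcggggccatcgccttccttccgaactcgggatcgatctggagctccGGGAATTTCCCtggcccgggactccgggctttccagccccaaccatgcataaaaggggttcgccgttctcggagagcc
CXCL3: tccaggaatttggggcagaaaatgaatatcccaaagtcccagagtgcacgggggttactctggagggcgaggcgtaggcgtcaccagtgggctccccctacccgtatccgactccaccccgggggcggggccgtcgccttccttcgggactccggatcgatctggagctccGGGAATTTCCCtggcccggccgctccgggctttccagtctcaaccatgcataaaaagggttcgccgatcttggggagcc

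The promoters of CXCL1 and CXCL3 were 81.4% identical over their alignment, those of CXCL2 and CXCL3 73.3%, and those of CXCL1 and CXCL2 68%. The consensus matched on both strands in windows that overlap and are shifted by 1 base, from 79 to 69 bases before the start of CXCL1 and CXCL3 and from 78 to 68 bases before that of CXCL2. Searched on both strands, it was in 1828 of 35116 promoters of this length (5.21%), and it was in none of those of CXCR4 and CXCL12. The E2F letters TTTCCCGC, TTTCGCGC, TTTGCCGC and TTTGGCGC were in 979 of all promoters (2.79%) and in 0 of the 7 promoter entries of the 5 matched genes, which says only that these letters are not in those windows.

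ACKR3 transcripts were abundant among chemokine receptors in the pTRE line and scarce in each of the E2F1 lines. The gene is on chromosome 2 from 237476430 to 237490997 (GRCh37, plus strand), with 2070 bases of exon. The 3 pTRE samples had 300, 391 and 326 reads, which gave 12.4, 14.9 and 11.97 CPM. The WT samples had 24, 8 and 54 reads, or 0.855, 0.642 and 1.95 CPM. All WT samples were below all pTRE samples, and WT replicate 3 held more ACKR3 RNA than the other two. In R109K, reads were 55, 68 and 64, or 1.78, 2.47 and 2.62 CPM. In KK, reads were 42, 44 and 43, or 1.45, 2.11 and 1.70 CPM. The samples of the 3 E2F1 lines overlapped with one another, and none of them overlapped with pTRE. Over all tested genes, samples did not overlap with pTRE for 51.5% of genes in WT.

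The mean level of ACKR3 was 13.1 ± 1.56 CPM in pTRE, 1.15 ± 0.702 in WT, 2.29 ± 0.447 in R109K and 1.75 ± 0.333 in KK (SD, n = 3). Because the genes were picked for the fall in WT, that comparison is a description and has no test: the fitted log2 fold change was -3.42 (SE 0.30), which is 10.7-fold lower. The next largest falls in WT were those of HBD, at -3.32, and ALPP, at -3.23. The comparisons of KK and R109K with pTRE used the same pTRE samples, so they too are described without a test. ACKR3 was 7.50-fold lower in KK (log2 fold change -2.91, SE 0.29) and 5.72-fold lower in R109K (-2.52, SE 0.28). Leaving out WT replicate 2 gave -3.22 for WT against pTRE, and leaving out WT replicate 3 gave -4.08.

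**Figure D1:**
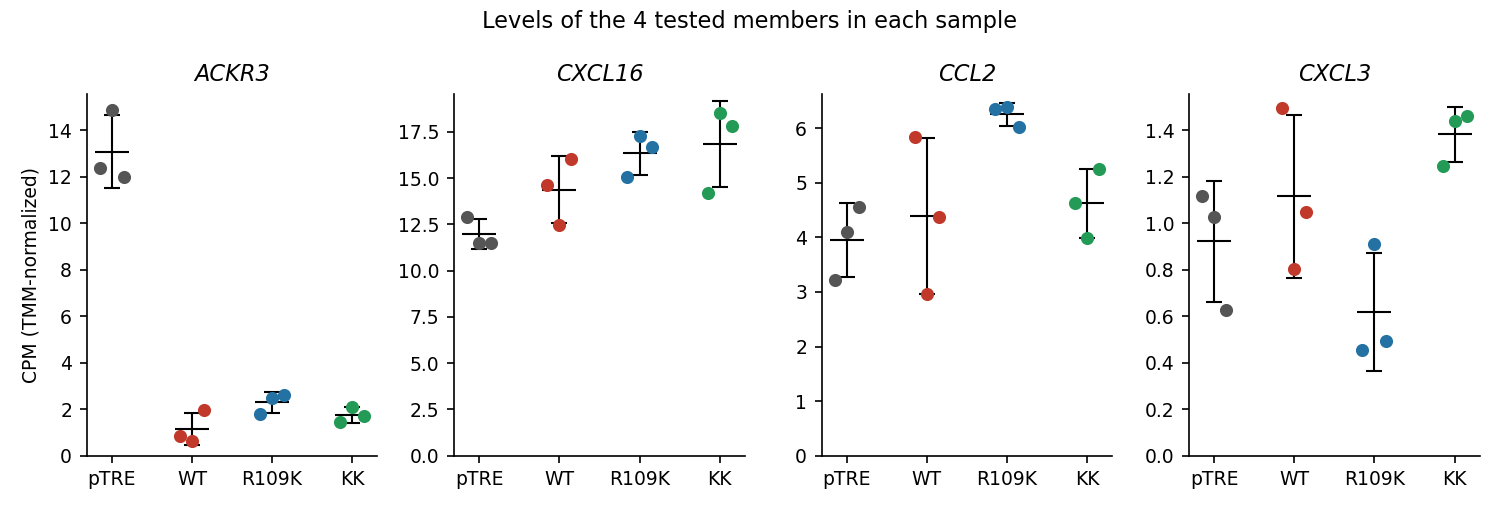
CPM (vertical axis, linear from 0, TMM-scaled) of ACKR3, CXCL16, CCL2 and CXCL3 in each sample of the 4 lines, with 1 point per sample and a bar and whiskers for the mean and SD (n = 3). For ACKR3 the pTRE samples lie from 11.97 to 14.9 CPM and all E2F1 samples from 0.642 to 2.62 CPM.

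Among the E2F1 lines, R109K against KK is the comparison that used no sample of the one by which the genes were picked. ACKR3 did not pass the test there: the log2 difference of R109K minus KK was 0.39 (SE 0.30, 95% interval -0.24 to 1.02; adjusted p = 0.688, edgeR). The interval reaches from slightly lower to about the study's threshold of change, so equal levels are not shown. Described without a test, the log2 difference from WT was 0.90 in R109K (95% interval 0.24 to 1.57) and 0.52 in KK (-0.17 to 1.20). Both values were made smaller by WT replicate 3, the WT sample with the most ACKR3 RNA: without it they were 1.55 and 1.17, and without WT replicate 2 they were 0.69 and 0.31. By mean, the lines stood in the order pTRE, R109K, KK and WT, and the last 3 overlapped. E2F1 RNA stood in the reverse order by line mean, and the sample with the least E2F1 RNA of the E2F1 lines, R109K replicate 3 at 932 CPM, had the highest ACKR3 level of these lines, 2.62 CPM. WT replicate 2, which had the lowest ACKR3 level, did not have the most E2F1 RNA. The part of the E2F1 level and of the marker genes COL1A1, SPARC, CLDN4, CD14 and ITGAM in the ACKR3 values was not tested.

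CXCR4, the signalling receptor of CXCL12, was near the limit of detection in all lines. The gene lies on chromosome 2 from 136871919 to 136876747 (GRCh37, minus strand), and it received 8 reads over all 12 samples. In pTRE the counts were 0, 1 and 0, and in WT they were 0, 0 and 2. In R109K the counts were 0, 0 and 1, and in KK they were 0, 1 and 3. No sample exceeded 3 reads, the limit that a count of 0 allows (0.0972 to 0.241 CPM by sample, counting error only), so no difference between lines was detectable at this depth.

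CXCL12, the shared ligand of ACKR3 and CXCR4, is on chromosome 10 from 44865613 to 44881941 (GRCh37, minus strand) and received 22 reads in all. The counts were 1, 1 and 1 in pTRE and 0, 1 and 0 in R109K. WT had 6, 0 and 2 reads, and KK had 4, 2 and 4. KK samples were thus the highest as a group, but a WT sample had the highest count and another had 0. Neither CXCR4 nor CXCL12 passed the filter, and their transcripts were listed at 0.214 CPM or less in every sample, whereas ACKR3 was at 0.642 CPM or more.

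Per kilobase of exon, ACKR3 had the highest level of the 22 chemokine receptors with reads in pTRE, at 6.32 ± 0.75 CPM per kb (SD, n = 3). ACKR1, the atypical receptor of red cells and venules that binds many inflammatory chemokines, was next at 2.48 CPM per kb, 2.55-fold below ACKR3, and their samples did not overlap. In WT, ACKR3 was the third receptor at 0.555 CPM per kb, after ACKR1 at 1.21 and CCR6, the receptor of CCL20, at 0.822. In KK it was again the third, at 0.848 after 1.80 for ACKR1 and 0.899 for CCR6, and in R109K it was the third at 1.11 after 1.28 for CCR6 and 1.22 for ACKR1. In each E2F1 line the samples of ACKR3 overlapped with those of its nearest neighbour above, CCR6 in WT and KK and ACKR1 in R109K, and in WT also with CXCR6 just below it. The receptors of the chemokine members were low: CXCR6, for CXCL16, which overlaps FYCO1 on the opposite strand, had line means of 1.30 to 1.93 CPM, CXCR2, for CXCL1 to CXCL3, had 2 to 10 reads summed over a line, and CCR2, for CCL2, had 0 to 7.

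**Figure D2:**
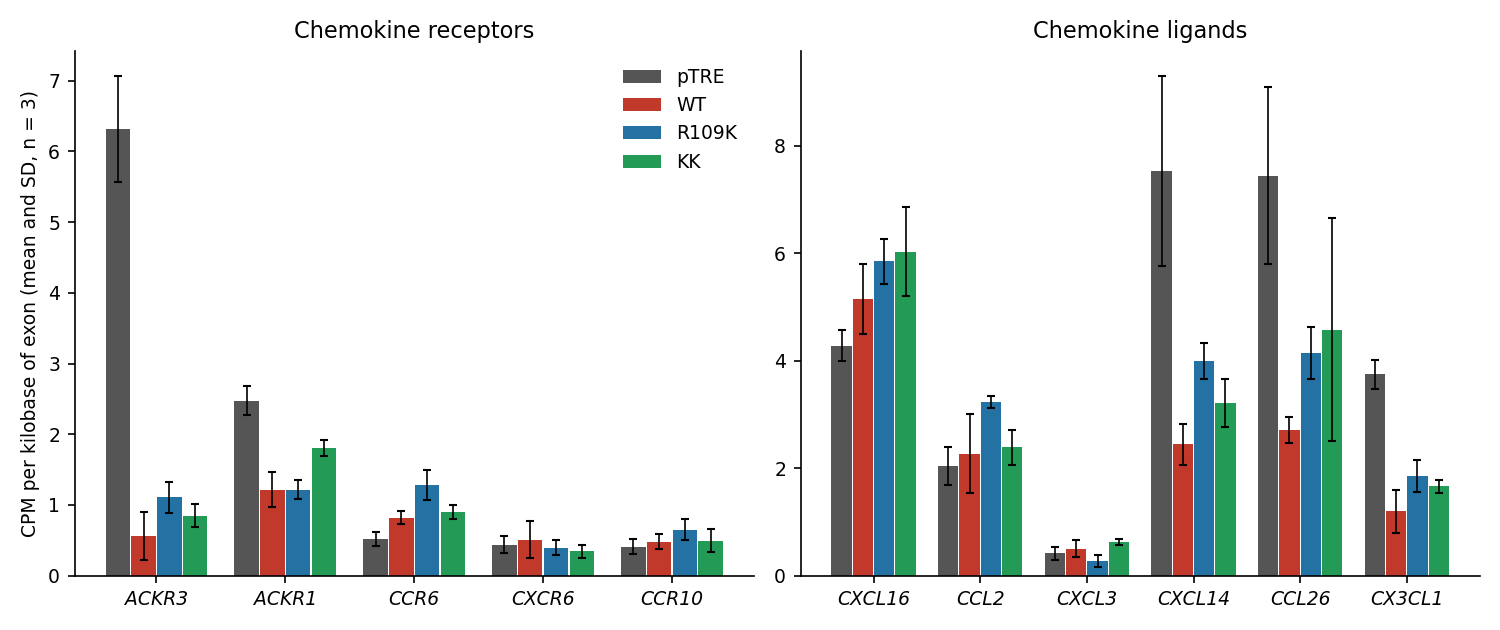
Mean CPM per kilobase of exon (bars, from 0) with SD (n = 3) for chemokine receptors (left) and ligands (right) in pTRE, WT, R109K and KK. ACKR3 is at 6.32 in pTRE and between 0.555 and 1.11 in the E2F1 lines, while CXCL16 is at 4.28 in pTRE and between 5.15 and 6.03 in the E2F1 lines.

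CXCL16 was the most abundant of the measured chemokine members in each line, and its mean was higher in the E2F1 lines than in pTRE. The gene is on chromosome 17 from 4636828 to 4643223 (GRCh37, minus strand) and overlaps MED11 and ZMYND15 on the opposite strand, so its counts are uncertain where strand was not used in counting. CPM values were 12.9, 11.5 and 11.5 in pTRE, 14.6, 12.4 and 16.04 in WT, 15.04, 17.3 and 16.7 in R109K, and 14.2, 18.5 and 17.8 in KK. All R109K and KK samples were above all pTRE samples. The log2 fold change was 0.49 in KK (SE 0.14, adjusted p = 0.0117, edgeR) and 0.45 in R109K (SE 0.14, adjusted p = 0.0243, edgeR). Both were below a 2-fold change and above the adjusted p of 0.01, so CXCL16 was not called regulated. Samples that did not overlap were common: this held for 49.4% of tested genes in KK and 47.2% in R109K against pTRE. WT was 0.27 above pTRE on the log2 scale (SE 0.14, no test), and 0.36 without WT replicate 2. Per kilobase, CXCL16 was the third of 25 chemokine ligands with reads in pTRE, after CXCL14 and CCL26, and ranked 1 in WT, R109K and KK, with overlap with CCL26 in KK.

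CCL2 had its highest mean in R109K. It is on chromosome 17 from 32582293 to 32584227 (GRCh37, plus strand). The pTRE samples had 3.22, 4.10 and 4.55 CPM and the R109K samples had 6.35, 6.39 and 6.02 CPM. The KK samples had 4.64, 3.99 and 5.25 CPM, and the WT samples had 5.84, 2.97 and 4.37 CPM. R109K thus lay above every sample of the other lines, and the spread was widest in WT. The log2 fold change of R109K against pTRE was 0.66 (SE 0.22, adjusted p = 0.0329, edgeR), which missed both thresholds. R109K minus KK was 0.43 (95% interval -0.02 to 0.89, adjusted p = 0.436, edgeR), and R109K minus WT was 0.48 (0.02 to 0.94, adjusted p = 0.208, edgeR). Samples did not overlap for 21% of tested genes between R109K and KK and for 27.1% between R109K and WT. KK differed from pTRE by 0.22 (adjusted p = 0.462, edgeR) and from WT by 0.05 (95% interval -0.42 to 0.51, adjusted p = 0.947, edgeR), and the latter sign turned to -0.14 without WT replicate 2. WT was 0.18 above pTRE, with no test, and this sign turned to -0.085 without WT replicate 1.

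The 3 CXCR2 ligands differed in whether they were detected at all. CXCL1 (chromosome 4 from 74735110 to 74737025, GRCh37, plus strand) had 0 reads in all 12 samples, and CXCL2 (74962757 to 74964913, minus strand) had 2 reads, both in KK replicate 3. CXCL3 (74902306 to 74904524, minus strand) had 10 to 42 reads per sample. Of the distinct 50-base stretches of their transcripts, 4.57% of those in CXCL1, 13.4% in CXCL2 and 6.01% in CXCL3 also occur in another of the 3 genes, so a read lying wholly in such a stretch could not be assigned to 1 gene, and the counts are uncertain to that extent. The NF-kappaB match in the printed promoters was thus present in genes with and without reads.

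CXCL3 was lowest in R109K and highest in KK. In R109K it had 14, 25 and 12 reads, or 0.454, 0.908 and 0.491 CPM. In KK it had 36, 30 and 37 reads, or 1.25, 1.44 and 1.46 CPM. All R109K samples were below all KK samples. The pTRE samples had 1.12, 1.03 and 0.624 CPM and the WT samples had 1.496, 0.803 and 1.05 CPM. R109K minus KK was -1.15 on the log2 scale (SE 0.36, 95% interval -1.93 to -0.38), a 2.23-fold difference that did not pass after adjustment (adjusted p = 0.153, edgeR). Against pTRE, the log2 fold change was 0.58 in KK (adjusted p = 0.216, edgeR; no overlap between samples) and -0.57 in R109K (adjusted p = 0.283, edgeR). R109K minus WT was -0.88 (95% interval -1.67 to -0.10, adjusted p = 0.182, edgeR), and KK minus WT was 0.27 (-0.48 to 1.02, adjusted p = 0.779, edgeR). WT was 0.31 above pTRE, with no test.

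**Figure D3:**
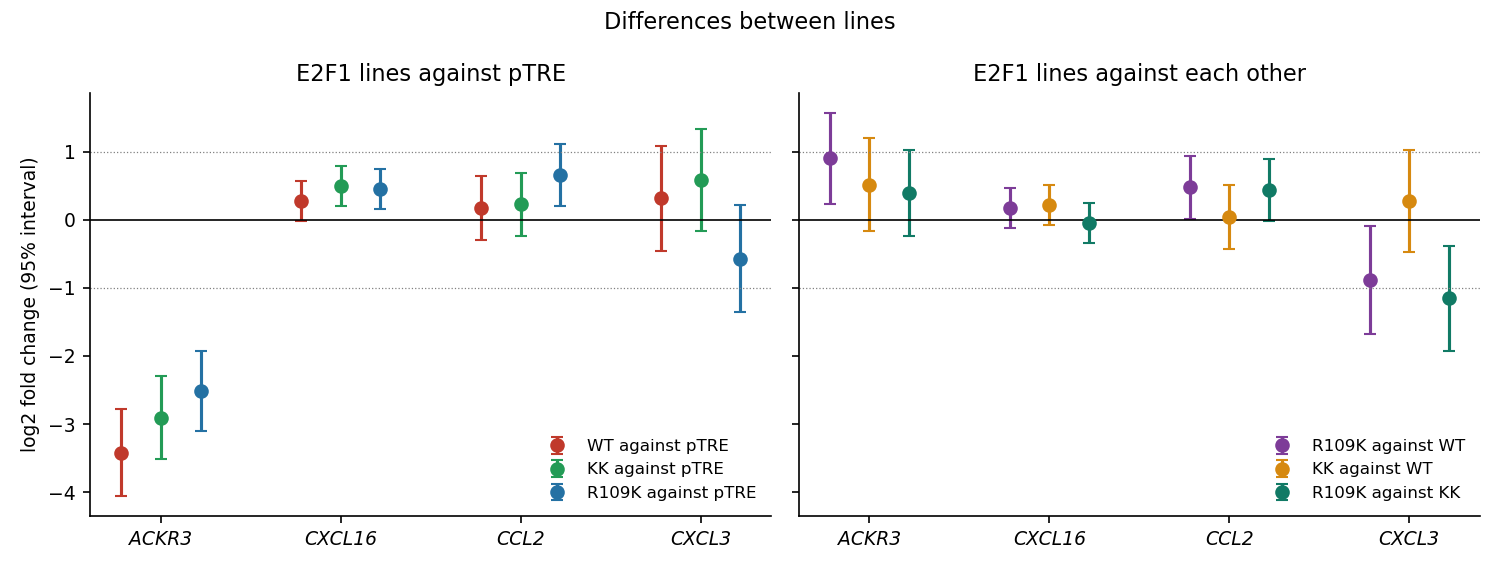
Fitted log2 fold change (points) with its 95% interval (whiskers) for the 4 genes that passed the filter, for the E2F1 lines against pTRE (left) and against each other (right). Dotted lines mark a 2-fold change. ACKR3 lies at -3.42, -2.91 and -2.52 in WT, KK and R109K against pTRE, and the other genes lie between -0.57 and 0.66 in that panel.

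Counted over the 4 measured members, 1 (ACKR3) passed the thresholds in each E2F1 line against pTRE and 3 did not. Over all tested genes, the share past the thresholds was 11.8% in WT, 10.9% in KK and 7.19% in R109K. Nothing is read from these counts, since ACKR3 was picked on that contrast or on its pTRE samples. Between the E2F1 lines, 0 members passed by edgeR or DESeq2, against 0.343% of all genes for R109K against WT, 0.00602% for KK against WT and 0.0902% for R109K against KK. At an unadjusted p under 0.05 in edgeR, CXCL3 and CCL2 differed between R109K and WT, CXCL3 differed between R109K and KK, and 0 members differed between KK and WT; ACKR3 was left out of the comparisons with WT. Of all tested genes, 22.3% had such a p for R109K against WT, 12.4% for R109K against KK and 8.51% for KK against WT. The median log2 change of all tested genes was between -0.0139 and 0.00328 in the 6 comparisons.

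Per kilobase, the order of the members turned between pTRE and the E2F1 lines. In pTRE the levels were 6.32 CPM per kb for ACKR3, 4.28 for CXCL16, 2.05 for CCL2 and 0.415 for CXCL3, and no neighbours in this order overlapped. In WT, R109K and KK the order was CXCL16, CCL2, ACKR3 and CXCL3. Neighbours overlapped in WT for ACKR3 at 0.555 and CXCL3 at 0.503 CPM per kb, and did not overlap elsewhere among these 4 genes. CXCL12, CXCR4 and CXCL2 followed at 0.0213 CPM per kb or less in each line, and CXCL1 was at 0.

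The other genes of the pathway were described by lists chosen by function. Of 21 other chemokine receptors, 6 were tested. In R109K against pTRE, 1 rose (CCR6) and 1 fell (ACKR1), while 0 passed in KK or WT by edgeR or DESeq2, with 3 of 6 at an unadjusted p under 0.05 in each, against 45.6% of all genes in KK and 49% in WT. Over all genes, 4.64% rose and 2.56% fell in R109K, 7.01% rose and 3.9% fell in KK, and 7.89% rose and 3.93% fell in WT. CCR6 was at 4.52 ± 0.75 CPM in R109K and 1.82 ± 0.35 in pTRE (SD, n = 3; log2 fold change 1.31, adjusted p = 3.13e-04, edgeR). ACKR1, a scavenging receptor like ACKR3, was at 1.64 ± 0.18 CPM against 3.34 ± 0.28 (log2 fold change -1.02, adjusted p = 0.00254, edgeR), and its call was lost without pTRE replicate 1, R109K replicate 1 or R109K replicate 3. In WT, as a description, ACKR1 stood at -0.998, just under a 2-fold change, and it was past the thresholds there under the replicate block or without WT replicate 1; R109K minus WT was -0.02 (SE 0.23). Both genes overlap other annotated transcripts, and no receptor passed by edgeR or DESeq2 between the E2F1 lines, where 1 to 3 of the 6 had an unadjusted p under 0.05. Of all genes, 22.3% had such a p for R109K against WT, 8.51% for KK against WT and 12.4% for R109K against KK.

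Of 42 other chemokine ligands, 11 were tested, and each one past the thresholds was lower in the E2F1 line. CX3CL1, or fractalkine, which like CXCL16 is made as a transmembrane chemokine, fell in KK (log2 fold change -1.17, adjusted p = 1.81e-04, edgeR) and in R109K (-1.02, adjusted p = 7.73e-04, edgeR). Its level was 22.3 ± 1.63 CPM in pTRE, 7.12 ± 2.38 in WT, 11.0 ± 1.78 in R109K and 9.91 ± 0.71 in KK (SD, n = 3). The call in R109K was lost without pTRE replicate 3 or R109K replicate 2. CXCL14, an attractant of immature myeloid cells, fell in KK (-1.24, adjusted p = 8.36e-05, edgeR) and stood at -0.92 in R109K, under a 2-fold change; it overlaps SLC25A48 on the opposite strand. The median over the 11 ligands was -0.71 in KK and -0.73 in R109K. In R109K, CCL20 at 0.28 and CCL27 at 0.35 were above 0 among these ligands. Of the members there, CXCL16 stood at 0.45, CCL2 at 0.66 and CXCL3 at -0.57, none past the thresholds. In WT, 4 ligands passed as a description (CXCL14, CCL26, CCL28 and CX3CL1), and the same 4 did without WT replicate 2. CCL28 dropped out when any other sample of the comparison was left out. Falls past the thresholds made up 3.93% of all genes in WT, 3.9% in KK and 2.56% in R109K. Between the E2F1 lines 0 ligands passed by edgeR, with 3 at an unadjusted p under 0.05 for R109K against WT, 3 for KK against WT and 0 for R109K against KK (22.3%, 8.51% and 12.4% of all genes), and DESeq2 called 1, CXCL8, lower in R109K than in WT.

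Partners of ACKR3 and CXCR4 moved upward where they passed. Of 27 listed signalling, trafficking and ligand-handling genes, 22 were tested, and 4 rose in KK, 2 in R109K and 5 in WT, with 0 falls. Rises also outnumbered falls over all genes. They made up 7.01% in KK, 4.64% in R109K and 7.89% in WT, against 3.9%, 2.56% and 3.93% for falls. The median over the 22 tested partners was only 0.11 in KK, 0.22 in R109K and 0.03 in WT. RGS16, named after its values were seen, stood at -0.89 in KK, -0.92 in R109K and -0.97 in WT, each just under a 2-fold change. ARRB2, a beta-arrestin, was at 34.8 ± 2.98 CPM in pTRE, 86.3 ± 10.8 in KK, 75.1 ± 8.83 in R109K and 73.6 ± 10.5 in WT (SD, n = 3). It rose in KK and in R109K (log2 fold change 1.31 and 1.11, adjusted p = 3.61e-06 and 3.02e-05, edgeR). ARRB1, the other beta-arrestin, stood at -0.26 in KK and -0.25 in R109K. ADRBK1, or GRK2, a kinase that phosphorylates active receptors, rose in KK (1.25, adjusted p = 4.64e-06, edgeR) and stood at 0.65 in R109K. RAMP2, which forms the adrenomedullin receptor with CALCRL, rose in R109K (1.45, adjusted p = 0.00101, edgeR) and stood at 0.98 in KK. RAMP2 overlaps an antisense transcript.

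The remaining partners past the thresholds were named after their values were seen. In KK these were GRK5, a receptor kinase, at 1.02, and DPP4, a protease that clips CXCL12, at 1.03. Their calls were lost without pTRE replicate 2 or 3 for GRK5 and without KK replicate 1 for DPP4, and both genes overlap other annotated transcripts. In WT, as a description, ADRBK1, ARRB2, RAMP2, DPP4 and CD74, a surface receptor of the cytokine MIF, were past the thresholds, and CD74 dropped out without WT replicate 2 or any 1 pTRE sample. ARRB2 and DPP4 dropped out without WT replicate 1, and RAMP2 without WT replicate 1, WT replicate 3 or any 1 pTRE sample. MIF was listed at 0 in all samples. It overlaps another protein-coding gene on the same strand, so its counts are uncertain and absence of its RNA is not shown. Between the E2F1 lines 0 partners passed by edgeR or DESeq2, with 5 at an unadjusted p under 0.05 for R109K against WT, 0 for KK against WT and 3 for R109K against KK (22.3%, 8.51% and 12.4% of all genes). For ADRBK1, R109K minus KK was -0.59 (95% interval -0.88 to -0.31, adjusted p = 0.0457, edgeR), which misses the thresholds used here.

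**Figure D4:**
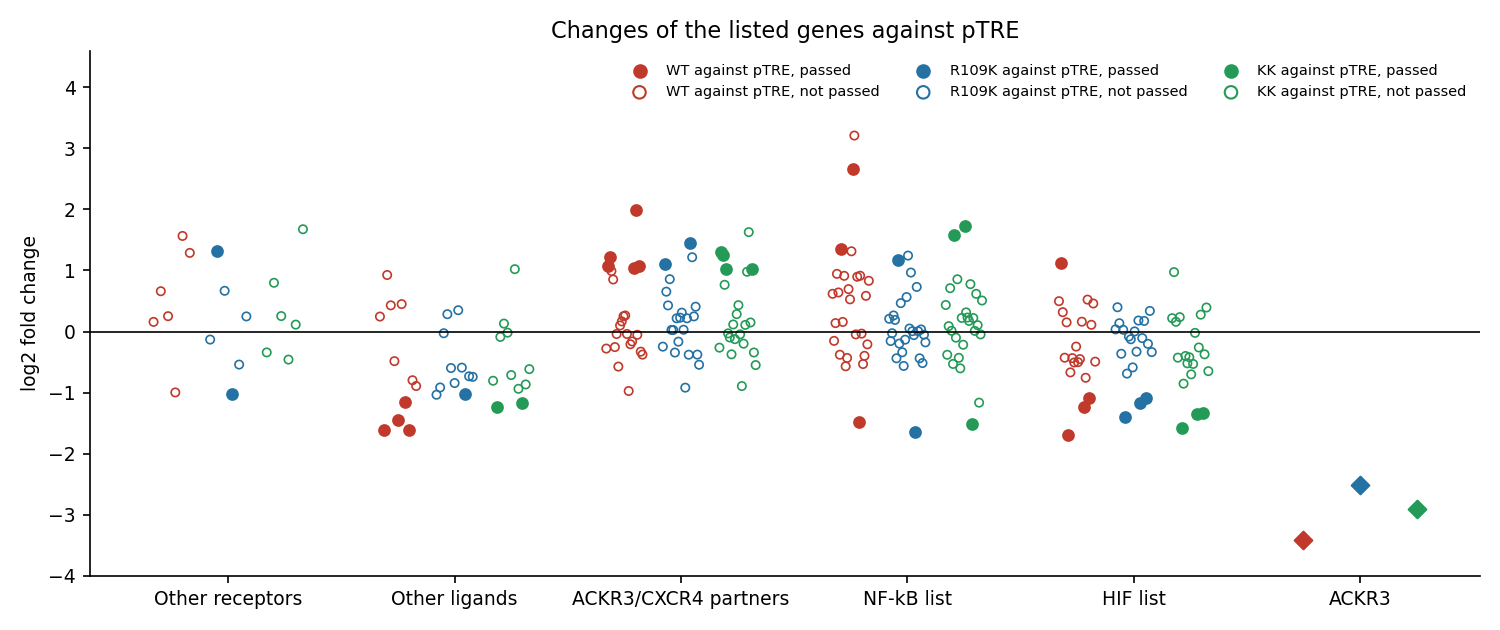
Log2 fold change against pTRE of each tested gene in 5 lists (circles; filled where the adjusted p was under 0.01 and the change over 2-fold) in WT, R109K and KK, with ACKR3 as diamonds at the right. Among the ligands the filled circles all lie below 0, and among the partners all lie above 0. ACKR3 lies below every list gene, which is a description, since it was picked for its fall in WT. Its KK and R109K points share the same pTRE samples.

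NF-kappaB, the factor family behind CXCL1 to CXCL3 and CCL2 in inflamed cells, was covered by 28 genes, of which 26 were tested. Over all genes, 7.01% rose and 3.9% fell in KK, 4.64% rose and 2.56% fell in R109K, and 7.89% rose and 3.93% fell in WT. NFKBIB, an inhibitor that holds NF-kappaB in the cytoplasm, rose in KK (log2 fold change 1.59, adjusted p = 4.45e-06, edgeR) and in R109K (1.18, adjusted p = 1.13e-04, edgeR). LIF, a cytokine of the interleukin-6 family, fell in KK (-1.51, adjusted p = 2.70e-05, edgeR) and in R109K (-1.64, adjusted p = 2.19e-05, edgeR). ICAM1, an adhesion molecule, rose in KK (1.73, adjusted p = 0.00589, edgeR) on 8 to 18 reads per sample against 4 to 5 in pTRE, and its call was lost when any sample but KK replicate 2 was left out. DESeq2 did not call ICAM1 in KK against pTRE, and it called TRAF1 lower there, which stood at -1.17 in edgeR (adjusted p = 0.0135). NFKBIB overlaps SIRT2, and LIF and ICAM1 overlap noncoding genes on the opposite strand. In WT, described without a test, NFKBIB and IL1A were up and LIF was down, and IL1A dropped out without WT replicate 2 or any 1 pTRE sample. The list's median was 0.14 in KK and -0.01 in R109K, and in WT it was 0.56, or 0.22 without WT replicate 2. Between the E2F1 lines 0 genes of the list passed by edgeR, with 10, 8 and 6 at an unadjusted p under 0.05 for R109K against WT, KK against WT and R109K against KK (22.3%, 8.51% and 12.4% of all genes). Without WT replicate 2, edgeR called IL11, a cytokine, lower in R109K than in WT (-0.96 with all samples, adjusted p = 0.00819, edgeR), and with all samples DESeq2 called IL1A lower in R109K than in WT and TRAF1 lower in KK than in WT.

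Hypoxia-inducible factors are known to raise CXCR4 and, in some cells, ACKR3, so 20 genes of that response were counted, all of them tested. The same 3 genes fell in KK and in R109K: CA12, a membrane carbonic anhydrase, EGLN3, an oxygen-dependent hydroxylase that acts on the factors, and P4HA1, a collagen prolyl hydroxylase. CA12 fell from 86.8 ± 3.35 CPM in pTRE to 29.1 ± 3.44 in KK and 32.9 ± 2.84 in R109K (SD, n = 3; log2 fold change -1.58 and -1.40, adjusted p = 1.33e-06 and 7.20e-06, edgeR). EGLN3 changed by -1.35 and -1.17 (adjusted p = 5.24e-05 and 2.59e-04, edgeR), and P4HA1 by -1.34 and -1.09 (adjusted p = 8.91e-05 and 7.27e-04, edgeR), the latter call being lost without R109K replicate 2. The other 17 genes did not pass in either line, VEGFA at -0.43 and -0.36 and SLC2A1 at -0.85 and -0.69 among them (named after their values were seen). The list's median was -0.41 in KK and -0.12 in R109K. Over all genes, 3.9% fell in KK, 2.56% in R109K and 3.93% in WT. In WT, as a description, the same 3 were down and EPAS1, itself such a factor, was up, and P4HA1 dropped out without WT replicate 2. Between the E2F1 lines 0 passed by edgeR or DESeq2, with 7, 1 and 5 at an unadjusted p under 0.05 for R109K against WT, KK against WT and R109K against KK (22.3%, 8.51% and 12.4% of all genes).

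The genes whose log2 CPM followed ACKR3 most closely over the 12 samples were CYB561, CA12, PFKM, UBE2L6 and APOBEC3C, with Pearson r from 0.978 to 0.985 among 13304 genes ranked. The 12 points are 4 lines of 3 samples, so r mostly follows the line means, and it is a description. CYB561, an electron carrier of vesicle membranes, was at 164 ± 6.33 CPM in pTRE, 68.5 ± 10.6 in WT, 87.0 ± 3.91 in R109K and 83.6 ± 6.46 in KK. UBE2L6, a conjugating enzyme of the ubiquitin-like protein ISG15, was at 25.8 ± 3.09, 8.25 ± 2.30, 12.5 ± 1.99 and 9.99 ± 1.32 CPM in the same order. Both had the line order of ACKR3, pTRE, R109K, KK and WT, which follows from ranking genes by their likeness to ACKR3. The log2 fold change of WT against pTRE was -1.26 for CYB561 and -1.63 for UBE2L6, against -3.42 for ACKR3. Nothing is read from their smaller size, since ACKR3 was picked for its fall there. PFKM, a muscle-type phosphofructokinase, and APOBEC3C, a cytidine deaminase, overlap other annotated genes. The r of the other measured members with ACKR3 was -0.15 for CXCL3, -0.50 for CXCL16 and -0.21 for CCL2.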

How the data were processed

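Poly(A) RNA of 12 samples, 3 biological replicates of each of 4 lines, was sequenced from directional libraries. The authors trimmed reads with Trim Galore 0.4.3, aligned them to hg19 with STAR 2.5.1 and deposited raw read counts per gene symbol. The submitters' notes also name DESeq2 1.16.1. The counting strand and the annotation are not given in the sources used here. The 5 summary lines, 34.3 to 68.8% of reads, were left out of library sizes and tests.

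The main tool was edgeR 4.0.16 under R 4.3.3, with filterByExpr by line, TMM, 1 quasi-likelihood model (glmQLFit, glmQLFTest) over all 12 samples, and Benjamini-Hochberg adjustment over all 16625 tested genes. Regulated meant an adjusted p under 0.01 and a change over 2-fold, as in the study. The common dispersion was 0.0239. P-values measure the spread between replicates of the same lines and hold no variation between lines made alike. Each form of E2F1 was carried by 1 line and no sample went without doxycycline. A difference between the lines themselves and an effect of the E2F1 form therefore cannot be told apart. The comparisons with pTRE all share the same pTRE samples, so they are not independent of each other. CPM per kilobase used exon lengths of the GENCODE v44 annotation on GRCh37, the hg19 assembly, and log2 CPM of single samples used a prior count of 2. Libraries differed in all 66 pairs by more than counting noise. The script was tested on simulated data. DESeq2 1.42.0 and the other settings named in the closing section were alternatives.

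The members and lists were chosen with earlier results of these data known, and 1 marker list is not reported here. Named genes were E2F1, the members, in each list at most the 3 largest rises and 3 largest falls past the thresholds in KK or R109K against pTRE, and the 5 genes most correlated with ACKR3 at a mean count of at least 50.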

Additional observations from a re-analysis of the deposited data

How the results depend on the processing

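The log2 fold changes of the measured members, the counts of regulated members and the list counts against pTRE were recomputed under RLE normalization, no filter, at least 10 counts in every sample, only the 6 samples compared, a replicate block, DESeq2, an adjusted p of 0.05, glmTreat against 2-fold, and with each sample left out. Of 330 alternative values of the 24 log2 fold changes of ACKR3, CXCL3, CXCL16 and CCL2, 323 kept their direction or moved by less than their spread, 3 moved and 4 reversed. The adjusted p of 0.05 and glmTreat reuse the main fit and change only the call. Their log2 fold changes could not move, although they are counted among the 330. With at least 10 counts in every sample, 0 members were regulated in WT, KK or R109K against pTRE, because WT replicate 2 has 8 ACKR3 reads and the gene leaves the test. With each sample left out in turn, 0 to 1 members were regulated in R109K against WT, the 1 being ACKR3 without WT replicate 3. The counts of the other 5 comparisons did not move. Calls of ACKR3 against pTRE or WT are descriptions under every setting, the replicate block included. Those comparisons share samples with the one by which the genes were picked. The 3 values that moved were all of ACKR3 without WT replicate 3: -4.08 for WT against pTRE, 1.55 for R109K against WT and 1.17 for KK against WT. The reversed values were those of CCL2 in KK against WT, -0.14 without WT replicate 2 and -0.05 without KK replicate 3 (range -0.14 to 0.31), and of CXCL16 in R109K against KK, 0.01 without R109K replicate 1 and 0.032 without KK replicate 2 (range -0.16 to 0.032); the cause was not tested. CCL2 in WT against pTRE, which has no test, also turned sign, to -0.085 without WT replicate 1 (range -0.085 to 0.36). With each sample left out, ACKR3 ranged from -4.08 to -3.19 in WT, from -3.05 to -2.78 in KK and from -2.62 to -2.36 in R109K against pTRE.

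Same-numbered samples shared little deviation on average (mean correlation 0.0436 over 18 pairs, from -0.295 to 0.470, 5 of them over 0.1). Still, 7 of 12 samples correlated best with their own number. Whether the numbers pair the samples is thus not settled, and the replicate block is given as an alternative. Under the replicate block each E2F1 line against pTRE had 1 regulated member, and 0 passed between the E2F1 lines. With no filter, CXCR4, CXCL12 and CXCL2 entered the edgeR test on few reads and none was called, with adjusted p from 0.255 to 1 and an unadjusted p under 0.05 for CXCL12 in R109K against WT and against KK. The list counts were recomputed under the same settings after the data were seen. Under glmTreat against 2-fold, which asks for a change beyond that size, NFKBIB higher in KK and CA12 lower in WT and in KK were left, and all other list counts against pTRE were 0. The count of partners higher in WT ranged from 2 to 5 with samples left out, that of NF-kappaB genes higher in WT from 1 to 4, and that of ligands lower in R109K from 0 to 2. Depth limits CXCR4, CXCL12, CXCL1 and CXCL2, for which 3 reads correspond to 0.0972 to 0.241 CPM.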
